A study of Mus musculus with 12 samples.

Results

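Cytosolic ribosomal protein genes encode the proteins of the ribosome that translates in the cytosol. They were taken as the genes whose symbol is Rpl (large subunit) or Rps (small subunit) followed by a digit, or is Rplp0, Rplp1, Rplp2 or Rpsa, with Rps6k kinases and names with -ps left out. The array carried 78 such genes among 17658 genes with 1 symbol per probe. Of these, 70 had canonical names, 44 of the large and 26 of the small subunit. Another 6 were paralogues, extra copies named after a canonical gene: Rpl39l, Rpl22l1, Rpl3l, Rpl36al, Rpl7l1 and Rps27l. The remaining 2 were other names that the rule catches, Rps19bp1 and Rps23rg1. Each gene was read by its probe with the highest mean intensity. A probe was tested if it lay above an intensity of 32 on at least 3 of the 12 arrays, which 76 of the 78 genes passed, among them 69 canonical genes and all 6 paralogues. Of the 76, 75 lay above 32 on all 12 arrays and Rpl3l on 10. Rpsa, whose probe read between -1.4 and 18.5, and Rps23rg1 passed 32 on no array and were not tested. Rps27a was not analysed here.

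RNA came from 12 samples of E14, a feeder-free line of mouse embryonic stem (ES) cells grown in serum with LIF, a cytokine that keeps ES cells self-renewing. All 12 received 2 µg of a pSUPER puro plasmid that makes a short hairpin RNA, so no group was left untransfected. The hairpin targeted firefly luciferase in 6 samples (Luc, the control), Jmjd1a (now Kdm3a) in 3 and Jmjd2c (now Kdm4c) in 3, with 1 construct per target as far as the labels say. Both targets encode demethylases of histone H3 lysine 9. The Luc samples were kept in puromycin at 1 µg/ml for 4 days, and for the knockdown samples the labels' text breaks off after puromycin is mentioned. The labels call the samples biological replicates without saying that the cultures were separate, so p-values measure the spread between these samples.

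The 12 arrays were taken as 2 sets, with no such division in the labels. Luc replicates 1 to 3 went with the Jmjd1a arrays (mean r 0.987 across tested probes, against 0.951 for Luc 4 to 6) and Luc 4 to 6 with the Jmjd2c arrays (0.982 against 0.975). The division was less clear for Jmjd2c, whose mean r with Luc 1-3 (0.975) was close to that with Luc 4-6 (0.982). The 0.975 also exceeded the r of 0.962 to 0.964 between Luc 1-3 and Luc 4-6 arrays. Each knockdown was set against the 3 Luc arrays of its own set, and the Luc sets were compared with each other. Mean intensity per array was 236 to 245. The targeted genes fell: the 2 tested Kdm3a probes read 31.9% and 37.8% of Luc 1-3 in the Jmjd1a arrays, and Kdm4c read 38.3% of Luc 4-6 in the Jmjd2c arrays. Of 7 ES cell markers 6 were tested, with Dppa5a at background, and of 7 fibroblast markers Thy1 alone was tested. With Jmjd1a 3 ES cell markers fell (Esrrb -0.83, Zfp42 -0.45, Nanog -0.29), as did 4 of 6 primitive endoderm markers (median -0.64) and Thy1 (-0.77). Of 3 tested trophectoderm markers 2 rose with Jmjd1a (median 1.06), and of 3 tested neuroectoderm markers 1 rose and 2 fell (median -0.39). With Jmjd2c Nanog (-0.40), Sox2 (-0.18) and Thy1 (-1.22) fell, and 1 trophectoderm and 1 neuroectoderm marker rose. Between the Luc sets 2 ES cell markers were higher and 3 lower in Luc 4-6, and 1 primitive endoderm marker was higher and 5 lower. Trophectoderm markers gave 2 higher and 1 lower there, and neuroectoderm markers 0 higher and 1 lower. Their part in the results on ribosomal protein genes was not tested.

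Ribosomes need each canonical protein in about equal number, and in mammals the mRNAs of these proteins begin with a C and a run of pyrimidines, the 5′ terminal oligopyrimidine (TOP) tract, through which mTOR and Larp1 control their translation. Their promoters are active in every growing cell, and ES cells transcribe them at a high rate. A few canonical genes have paralogues with narrower expression: in the mouse Rpl39l is enriched in testis and male germ cells, Rpl3l is used in heart and skeletal muscle, and Rpl22l1 is held down by the Rpl22 protein.

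The promoters of Rpl39 and Rpl22 and of their paralogues are shown because these pairs hold the largest paralogue change and the largest canonical fall in the Jmjd2c arrays. Each line gives 120 bases before and 30 after an annotated start, 5′ to 3′ on the gene's strand, from RefSeq on GRCm38.p6. Capitals mark matches to the ETS factor core CCGGAAG, the YY1 core CCATCTT, the SP1 box GGGCGG or the TATA box TATAAA on either strand, and runs of a C followed by at least 4 pyrimidines within 20 bases of the start. Rpl39 lies at chrX:37085193-37085342 on the minus strand, Rpl39l at chr16:10170108-10170257 on the plus strand, the upstream Rpl22 start at chr4:152324316-152324465 and Rpl22l1 at chr3:28805388-28805537, both on the plus strand.
Rpl39: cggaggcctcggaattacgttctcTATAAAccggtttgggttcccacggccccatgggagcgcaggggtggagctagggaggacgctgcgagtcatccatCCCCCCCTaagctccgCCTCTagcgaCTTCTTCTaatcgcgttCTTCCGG
Rpl39l: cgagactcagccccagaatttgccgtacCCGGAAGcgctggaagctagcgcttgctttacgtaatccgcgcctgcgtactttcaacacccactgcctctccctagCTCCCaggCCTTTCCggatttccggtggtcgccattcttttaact
Rpl22: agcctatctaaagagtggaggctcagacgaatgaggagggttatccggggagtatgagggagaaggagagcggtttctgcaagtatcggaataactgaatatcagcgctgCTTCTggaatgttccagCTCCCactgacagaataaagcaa
Rpl22l1: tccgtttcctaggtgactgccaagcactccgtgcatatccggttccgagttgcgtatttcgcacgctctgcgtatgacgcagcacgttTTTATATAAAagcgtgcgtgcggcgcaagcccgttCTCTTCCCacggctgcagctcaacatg

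Rpl39 holds a TATA box and, just after its start, the ETS core read on the other strand (CTTCCGG), whereas Rpl39l holds the ETS core upstream and no TATA box in this stretch. In Rpl22l1 the TATA box overlaps its match on the other strand. Promoters of 300 bases were found for 56 of the 70 canonical genes, with 66 windows as some genes have several starts. The ETS core was in 37.9% of these windows, against 17.6% of the windows of all tested genes and 8.86% of all promoters. The start-site pyrimidine run was in 69.7%, against 46.1% of the windows of tested genes and 45.9% of all. The YY1 core was in 16.7% (7.44% and 6.34%), the SP1 box in 60.6% (62.9% and 35.7%) and the TATA box in 9.09% (7.38% and 13.6%). A match describes letters, not a bound site.

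Knockdown of Jmjd1a left most canonical ribosomal protein genes near their Luc level. Of 69 tested canonical genes, 4 rose (Rps19, Rplp0, Rps24 and Rpl4), 0 fell and 65 were not called at an adjusted p under 0.05 in limma's test, in which 14.5% of all 9222 tested genes rose and 13.6% fell. At an unadjusted p under 0.05, 11 canonical genes were higher and 0 lower, where 1873 of all 9222 tested genes were higher and 1712 lower. The median log2 change of the 69 was -0.00, equal to the median of 0 over all tested genes at this precision. Changes ran from -0.16 (Rpl5) to 0.58 (Rps19). Over all members, paralogues included, 5 rose and 2 fell. In these bulk samples a lower signal from fewer cells of one kind cannot be told apart from less RNA per cell.

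Rplp0, the core protein of the ribosomal stalk that recruits elongation factors, read 1916, 1942 and 1968 on Luc arrays 1 to 3 and 2632, 2558.5 and 2627 on the Jmjd1a arrays. All 3 Jmjd1a arrays lay above all 3 Luc arrays, a log2 change of 0.42 ± 0.06 (SE; limma adjusted p = 0.000305), or 134% of Luc. Its partners in the stalk did not pass the test, with log2 changes of -0.08 for Rplp1 (adjusted p = 0.314) and -0.14 for Rplp2 (adjusted p = 0.183). A dimmer second Rplp0 probe gave 0.26 (adjusted p = 0.141).

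Rps24, a small-subunit protein needed to process the small-subunit rRNA, read 1856, 1785 and 1835 in Luc 1-3 and 2240.3, 2225 and 2123 after Jmjd1a knockdown, a log2 change of 0.27 ± 0.06 (adjusted p = 0.00485). The groups did not overlap. Rpl4, which lines part of the exit tunnel of the large subunit, read 1081, 1158 and 1112 against 1471, 1346 and 1219, with no overlap and a log2 change of 0.26 ± 0.07 (adjusted p = 0.0139). Rps19, mutated in human Diamond-Blackfan anaemia, was read by a probe close to the floor of 32: 65.5, 74.8 and 68.7 against 104, 116 and 92.1. Its log2 change was 0.58 ± 0.10 (adjusted p = 0.00127), again with no overlap. Rpl5 and Rpl11, which with 5S rRNA bind the p53 regulator Mdm2, gave log2 changes of -0.16 (adjusted p = 0.168) and -0.09 (adjusted p = 0.262).

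The calls of Rplp0 and Rps19 held in all 25 alternative settings. Averaging all tested probes of a gene ended the calls of Rps24 and Rpl4, and that of Rpl4 was also lost in 3 other settings, among them those without Luc replicate 1 and without Jmjd1a replicate 1.

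**Figure D1:**
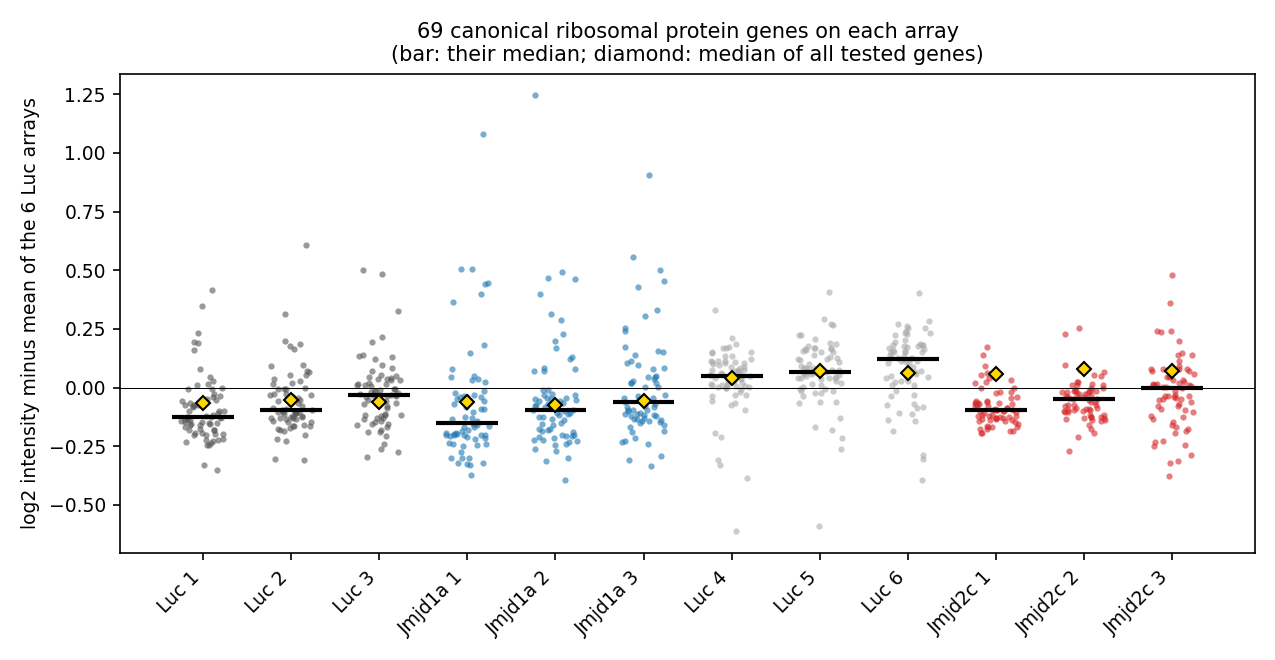
Log2 intensity of the 69 tested canonical ribosomal protein genes on each of the 12 arrays, minus each gene's mean over the 6 Luc arrays; points are genes, bars their median and diamonds the median of all tested genes. The bars of Luc 4 to 6 lie from 0.05 to 0.12 and those of the Jmjd2c arrays from -0.10 to -0.00, while the diamonds of these 6 arrays stay between 0.04 and 0.08.

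Knockdown of Jmjd2c went with slightly lower signals of canonical ribosomal protein genes across both subunits. Against Luc 4-6, 21 of 69 fell and 5 rose, and 43 were not called, where 19.6% of all tested genes fell and 22.7% rose. The median log2 change was -0.12, or 91.9% of Luc, against 0.02 over all tested genes, and 60 of the 69 estimates were negative. The large subunit had 15 of 44 genes lower (34.1%) and 3 higher, and the small subunit 6 of 25 lower (24%) and 2 higher. The small-subunit share was thus near the 19.6% of all tested genes. The median was -0.12 for each subunit. Over all members 24 fell and 6 rose. On 38 of the 76 members every Jmjd2c array lay below every Luc 4-6 array, which held for 24.3% of all tested genes.

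The largest fall was that of Rpl22, a large-subunit protein that also binds mRNA. It read 2348, 2477 and 2133 on Luc arrays 4 to 6 and 1844, 1708 and 1650.1 on the Jmjd2c arrays. The groups did not overlap, and the log2 change was -0.42 ± 0.07 (limma adjusted p = 0.000509), or 74.8% of Luc. Rpl12, at the base of the stalk, read 10224, 10849 and 10968 against 8304, 8406 and 8529.7, a change of -0.34 ± 0.05 (adjusted p = 0.000337). The 3 Rpl12 values of the Jmjd2c arrays lay close together and well below Luc.

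Small-subunit genes moved by similar amounts. Rps15, in the head of the small subunit, read 6749, 7125 and 6896 in Luc 4-6 and 5514, 5585 and 5905 in Jmjd2c, a log2 change of -0.29 ± 0.06 (adjusted p = 0.00177). Rps2, near the mRNA entry, read 22870.1, 23009 and 23493 against 19280.2, 19655 and 18579, a change of -0.27 ± 0.05 (adjusted p = 0.00203). Neither gene's groups overlapped. Rps26, near the mRNA exit, read 24560.0, 24448 and 25280.1 against 21605, 21455 and 18135, with Jmjd2c replicate 3 the lowest and a change of -0.28 ± 0.07 (adjusted p = 0.00801). Rpl32 (-0.27), Rpl39 (-0.25), Rpl35a (-0.24), Rpl3 (-0.24) and Rpl11 (-0.16) also fell, and the other canonical falls were no larger than that of Rpl3. Rplp1 (-0.12, adjusted p = 0.0948), Rplp2 (-0.12, adjusted p = 0.230) and Rpl5 (-0.03, adjusted p = 0.770) were not called.

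The 5 canonical genes that rose with Jmjd2c knockdown were Rpl29, Rps19, Rps24, Rplp0 and Rpl31. Rpl29 read 41.5, 48.3 and 44.4 in Luc 4-6 and 61.2, 63.5 and 69.7 in Jmjd2c, a log2 change of 0.54 ± 0.11 (adjusted p = 0.00272). Rps19 read 32.1, 32.6 and 39.7 against 45.7, 44.9 and 44.3, a change of 0.38 ± 0.10 (adjusted p = 0.0106). Both probes sat near the floor in the control, and neither gene's groups overlapped. Rps24 (0.27 ± 0.06, adjusted p = 0.00302), Rplp0 (0.18 ± 0.06, adjusted p = 0.0328) and Rpl31 (0.17 ± 0.06, adjusted p = 0.0348) had brighter probes. By their chosen probes Rplp0, Rps19 and Rps24 were thus called higher in both knockdowns, each against its own Luc arrays. With Jmjd2c the dimmer Rplp0 probe gave -0.15 (limma adjusted p = 0.346). Rps24 probe 102690538 fell there (-0.61), while Rps24 probe 107040059 rose (0.47). Against all 6 Luc arrays the Jmjd2c change of Rps19 was -0.13 and not called. Rpl4 was called higher with Jmjd1a and lower with Jmjd2c (-0.19, adjusted p = 0.0486). Under 24 alternatives the Jmjd2c call of Rplp0 was lost in 10, with adjusted p up to 0.909, and that of Rpl4 in 13, with adjusted p up to 0.134. Those of Rpl4 include leaving out any 1 of Luc 1 to 6, Jmjd1a replicate 2 or any Jmjd2c replicate, and those of Rplp0 include leaving out Luc replicate 4 or 6 or Jmjd2c replicate 3.

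Falls and rises differed in how bright their probes were, in a split made after the values were seen. At or above a mean log2 intensity of 13.06, the lower quartile of the canonical probes, all 52 canonical estimates were negative in the Jmjd2c comparison, 17 of them called lower and 0 higher (median -0.13; 22 and 0 at an unadjusted p under 0.05 in limma). Among the 60 other genes that bright, 6 fell and 13 rose (median 0.02, and 13 and 16 unadjusted). Of the 17 dimmer canonical genes 4 fell and 5 rose. In the Jmjd1a comparison the 52 bright canonical genes gave 0 calls either way (median -0.03, and 2 higher and 0 lower unadjusted). The 60 other bright genes gave 4 higher and 5 lower there (6 and 10 unadjusted). All 4 canonical rises came from the dimmer 17. Scanner saturation of the brightest probes was not tested.

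**Figure D2:**
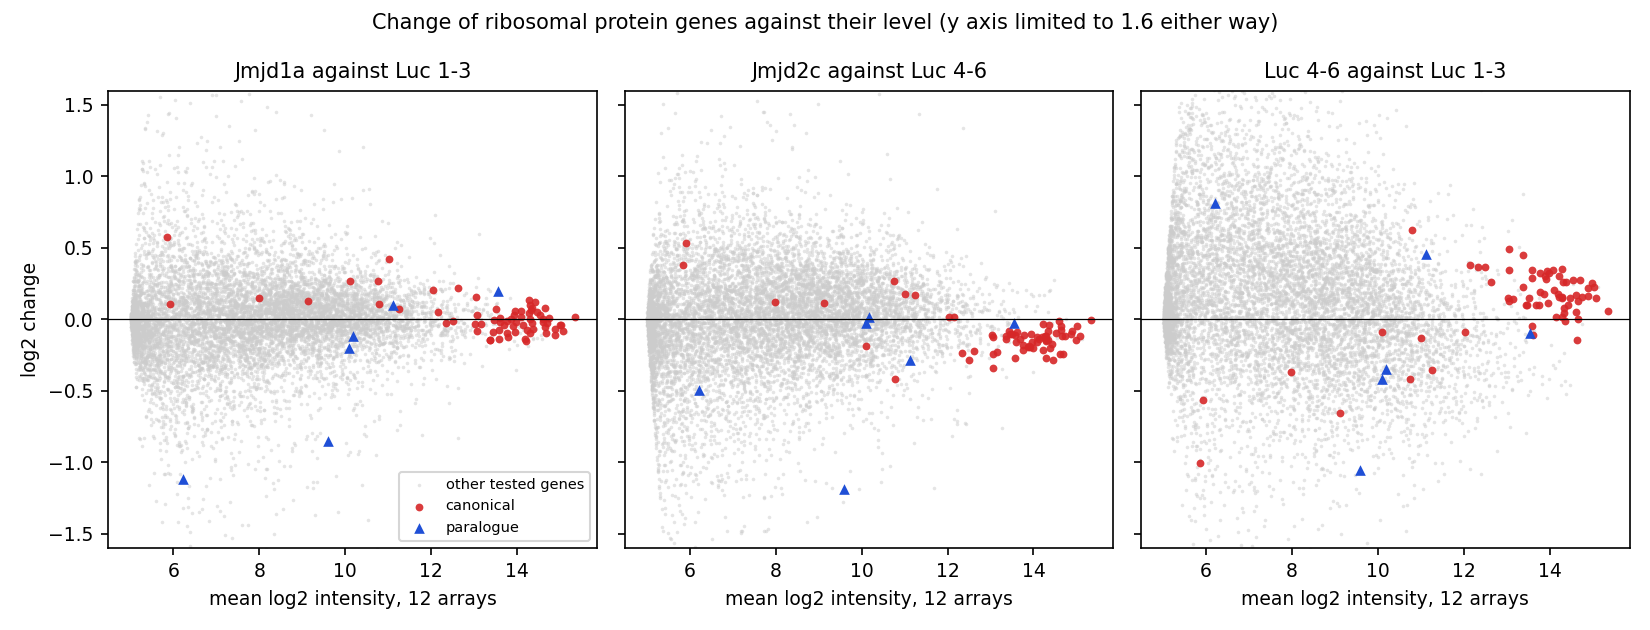
Log2 change (y axis) against the mean log2 intensity of the probe over 12 arrays (x axis) for canonical ribosomal protein genes (circles), paralogues (triangles) and all other tested genes (grey) in 3 comparisons; points beyond 1.6 either way lie outside the axis. In the Jmjd2c panel the 52 brightest canonical genes all lie below 0, and Rpl39l lies lowest among the members at -1.19.

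The number of Jmjd2c calls depended on the control arrays and the scaling. Against all 6 Luc arrays, as the series text sets the comparison, 1 member fell (Rpl39l) and 0 rose in limma (4 and 0 at an unadjusted p under 0.05). In that setting 3.56% of all tested genes fell and 9.79% rose. The canonical median was -0.06 with 0.07 over all tested genes. The gap between these medians was -0.13 there, -0.14 as reported above and -0.07 with quantile normalization, which gave 9 lower and 5 higher. Scaling to the 75th percentile gave 37 lower and 4 higher. Without Jmjd2c replicate 1 the number lower was 10. In the same arrays 5 of 6 primitive endoderm markers rose (median log2 change 1.83, Gata6 2.11), and their summed intensity was 822 to 856 in Luc 4-6 and 2535 to 2774 in Jmjd2c, with Gata4 alone not called; their part in the ribosomal protein result was not tested.

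The control sets also differed from each other in these genes. Luc 4-6 against Luc 1-3 uses the control arrays of both knockdown comparisons, so its values are set beside theirs only as values. Of 69 canonical genes 32 were higher and 6 lower in Luc 4-6, where 40.2% of all tested genes were higher and 21.6% lower. The canonical median was 0.15 and that of all tested genes 0.11. Over all members 34 were higher and 10 lower. These splits followed the scaling, with 22 higher and 14 lower after scaling to the 75th percentile and 11 higher and 19 lower after scaling to the median. Scaling to the median moved the median of all genes by -0.14, and the canonical median became -0.01.

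Rpl22 read 1483, 1512 and 1521 in Luc 1-3, below each of its values in Luc 4-6, a log2 difference of 0.62 ± 0.07 (limma adjusted p = 9.49e-06). Rpl12 differed by 0.49 ± 0.05 (adjusted p = 7.78e-06), and Rplp2 (0.45), Rps23 (0.38), Rpl36 (0.36), Rps15 (0.36), Rps28 (0.35) and Rpl17 (0.34) followed. Rplp1 was 0.15 higher in Luc 4-6 and -0.01 after scaling to the median. The lower genes were Rps19 (-1.01 ± 0.10, adjusted p = 4.16e-06), Rpl14 (-0.66), Rpl29 (-0.56), Rps24 (-0.42), Rps15a (-0.37) and Rpl31 (-0.35). All 6 were among the 17 canonical genes with dimmer probes. Bright canonical probes gave 25 higher and 0 lower (median 0.16, and 29 and 1 unadjusted in limma). The 60 other genes that bright gave 10 higher and 32 lower (median -0.19, and 10 and 34 unadjusted).

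The share of each array's summed intensity that came from canonical ribosomal protein probes does not depend on scaling an array by a factor. It was 9.35% ± 0.14 (SD, n = 3; 9.20 to 9.46) in Luc 1-3 and 9.27% ± 0.18 (9.08 to 9.43) in the Jmjd1a arrays, and these ranges overlap. In Luc 4-6 it was 10.4% ± 0.07 (10.3 to 10.4) and in the Jmjd2c arrays 9.53% ± 0.17 (9.37 to 9.70), with no overlap. Luc 4-6 thus had the highest share of the 4 groups, and the Jmjd2c arrays lay closer to Luc 1-3 than to their own controls.

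The Jmjd1a and Jmjd2c changes, which share no arrays, were compared by the difference between them in the same fit. The difference was called for 14 of 76 members, 12 with a higher value for Jmjd1a and 2 with a lower one, where 12.9% of all tested genes were called in the first direction and 12.9% in the second. Of canonical genes 11 were higher and 0 lower (18 and 1 at an unadjusted p under 0.05), with a median of 0.13 against -0.02 over all tested genes. Unadjusted, 1704 of all 9222 tested genes were higher and 1856 lower. Rpl22 had the largest difference (0.52 ± 0.10, limma adjusted p = 0.00230), from a change of 0.10 with Jmjd1a (adjusted p = 0.313) and of -0.42 with Jmjd2c. Rpl4 (0.45), Rpl23a (0.44), Rpl12 (0.38), Rps26 (0.33), Rpl36a (0.29), Rpl7 (0.28) and Rps15 (0.28) followed, then Rps2 (0.27), Rps28 (0.25) and Rps10 (0.23). The calls of Rpl22, Rpl4, Rpl12 and Rpl36a held in all 22 alternatives. That of Rps10 was lost in 13 of the 22, those of Rps26 and Rps28 in 11 and that of Rpl7 in 10. Without Luc replicate 1 the number of members called higher was 4.

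Among the paralogues Rpl39l had the clearest pattern. It read 1569.7, 1763 and 1451 in Luc 1-3 and 1039.9, 836.5 and 783 in the Jmjd1a arrays, with no overlap, a log2 change of -0.85 ± 0.11 that left 55.4% (limma adjusted p = 0.000154). In Luc 4-6 it read 779, 744.5 and 769, and in the Jmjd2c arrays 304, 336 and 367, a change of -1.19 ± 0.11 that left 43.8% (adjusted p = 8.51e-06). Each knockdown thus lay below its own controls, and the control sets themselves differed by -1.06 ± 0.11 (adjusted p = 6.13e-06). The 2 knockdown changes were not called different from each other (0.34, adjusted p = 0.139).

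Its canonical partner Rpl39, a small protein of the exit tunnel, read 23443 to 25424 in Luc 1-3, 23462.5 to 24774.5 in Jmjd1a, 26679.9 to 29069 in Luc 4-6 and 20931 to 24859 in Jmjd2c. Its log2 change was -0.02 with Jmjd1a (adjusted p = 0.900), -0.25 with Jmjd2c (adjusted p = 0.0183) and 0.17 between the Luc sets (adjusted p = 0.0671). Within arrays, Rpl39l moved relative to Rpl39 by -0.83 with Jmjd1a, -0.94 with Jmjd2c and -1.22 between the Luc sets. The groups did not overlap in any of these 3 comparisons, and an exact permutation test, two-sided, gave p = 0.1 for each, the smallest that 3 against 3 arrays allow (0.2 after adjustment over 18 pair comparisons). Against all 6 Luc arrays the Jmjd1a change of Rpl39l was -0.32 and not called (adjusted p = 0.429), while the Jmjd2c call held in all 24 alternatives, with changes from -1.72 to -1.12.

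Germ cell markers were low and moved in part with Rpl39l. Of 6 on the array, Dazl and Tex14 were tested, and Ddx4, Sycp3, Prm1 and Tnp1 averaged from -12.4 to 32.7 over the groups. Their summed intensity was 148 to 164 in Luc 1-3, 84.0 to 105 in Jmjd1a, 395 to 503 in Luc 4-6 and 309 to 320.2 in Jmjd2c. Tex14 fell in both knockdowns (-0.86 and -0.40) and Dazl fell with Jmjd2c (-0.95), but both were higher in Luc 4-6 than in Luc 1-3 (1.33 and 2.14), where Rpl39l was lower. Their part in the Rpl39l result was not tested.

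Rpl3l, the heart and skeletal muscle paralogue of the peptidyl transferase protein Rpl3, was close to the floor. It read 62.7, 83.6 and 77.1 in Luc 1-3 and 38.8, 18.6 and 30.2 in Jmjd1a, where 1 of 3 arrays lay above 32, a log2 change of -1.12 ± 0.13 with the floor at 32 (limma adjusted p = 9.37e-05). With 2 of 3 Jmjd1a arrays set to the floor, its size follows the floor: the change was -0.22 with a floor of 64, where the call was lost (adjusted p = 0.157). Against all 6 Luc arrays, still with the floor at 32, the change was -1.52. In Luc 4-6 it read 135, 139 and 118 and in Jmjd2c 102, 99.6 and 77.4, a change of -0.50 ± 0.13 (adjusted p = 0.0118), and Luc 4-6 exceeded Luc 1-3 by 0.82. All Jmjd1a arrays lay below all Luc 1-3 arrays, and all Jmjd2c arrays below all Luc 4-6 arrays. The fall was larger with Jmjd1a by 0.62 on the log2 scale (difference -0.62, adjusted p = 0.0337). That call was lost in 11 of 21 alternatives, and with a floor of 64 the difference reversed to 0.28 and was not called. Rpl3 itself changed by -0.03 with Jmjd1a (adjusted p = 0.788) and fell with Jmjd2c.

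Rpl22l1, like Rpl22, fell with Jmjd2c. It read 2538, 2572 and 2977.5 in Luc 4-6 and 2145, 2080.1 and 2394 in Jmjd2c, a log2 change of -0.29 ± 0.09 (adjusted p = 0.0261), and the groups did not overlap. Its change with Jmjd1a was 0.10 (adjusted p = 0.483), as was that of Rpl22, and between the Luc sets it was 0.46 (adjusted p = 0.000988). Within arrays Rpl22l1 differed from Rpl22 by -0.00, 0.13 and -0.16 in the 3 comparisons, with overlapping groups each time.

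Rps27l, a p53 target in human cells, read 12274, 12272 and 11523 in Luc 1-3 and 13285, 13369 and 14781 in Jmjd1a, a log2 change of 0.20 ± 0.06 (adjusted p = 0.0227) with no overlap. Rps27 changed by 0.05 there (adjusted p = 0.687), and the pair's within-array difference of 0.14 had overlapping groups. With Jmjd2c Rps27l gave -0.03 (adjusted p = 0.754). Rpl36al and Rpl7l1 were called in neither knockdown, at -0.20 and -0.12 with Jmjd1a and -0.03 and 0.02 with Jmjd2c, and both were lower in Luc 4-6 than in Luc 1-3 (-0.42 and -0.35). These values are those of the brightest probe: the other 2 Rpl7l1 probes, 103360092 and 610010, rose with Jmjd2c (0.32, adjusted p = 0.00552, and 0.35, adjusted p = 0.00508), and the mean of the 3 probes gave 0.23 (adjusted p = 0.00190). Their canonical partners Rpl36a and Rpl7 gave 0.10 and 0.13 between the Luc sets (adjusted p = 0.126 and 0.0964). Rps19bp1, a binding protein and not part of the ribosome, rose with Jmjd2c (0.34 ± 0.05, adjusted p = 0.000448) and gave -0.08 with Jmjd1a (adjusted p = 0.347).

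**Figure D3:**
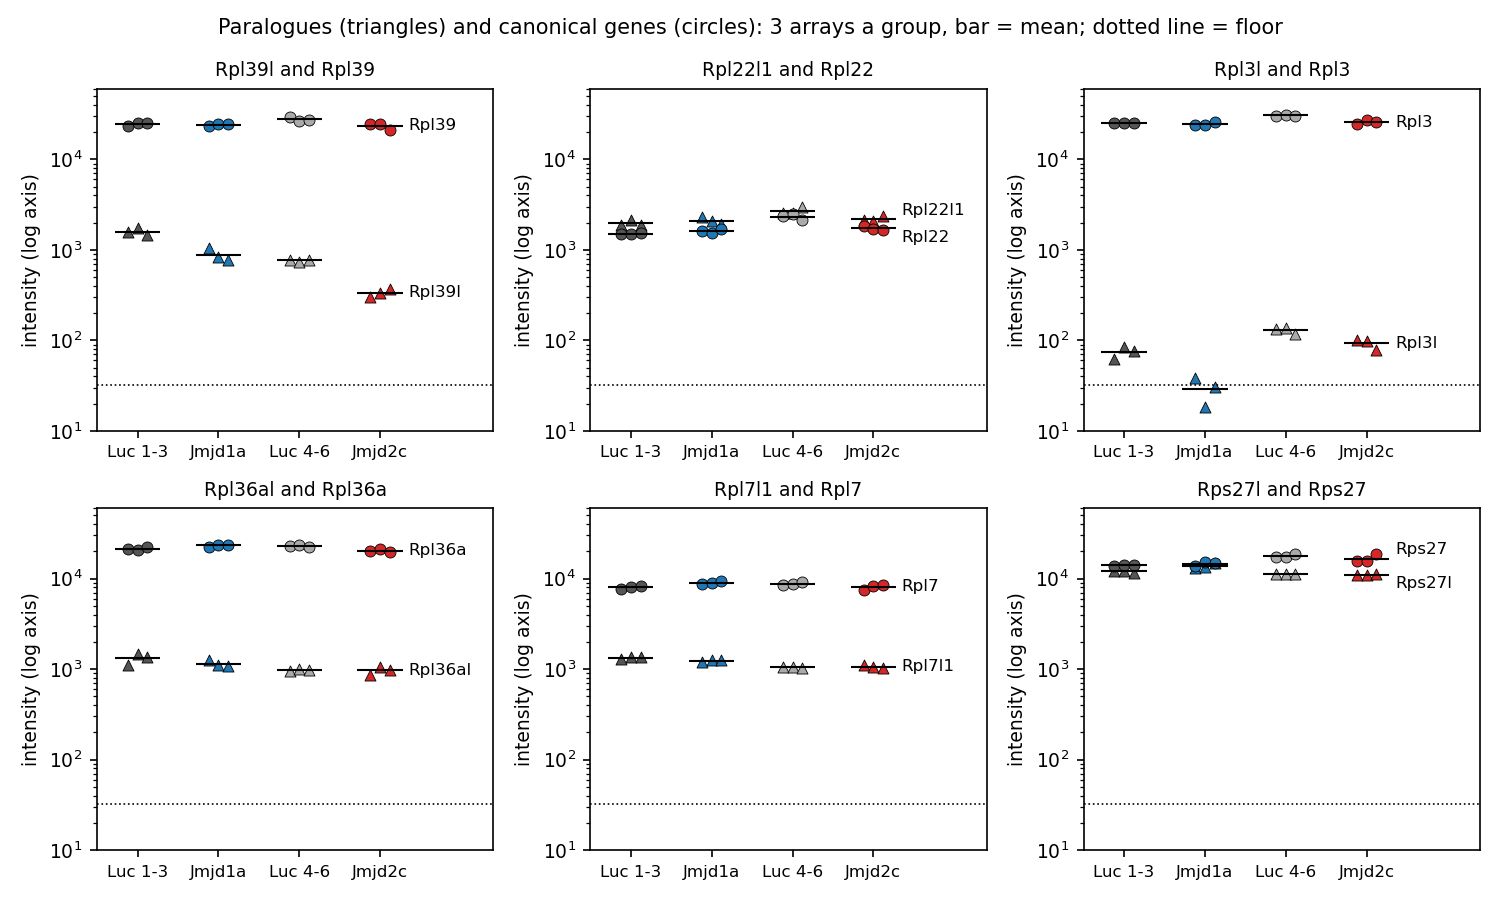
Intensity on each array (log axis) of the 6 paralogues (triangles) and their canonical genes (circles) in the 4 groups of 3 arrays; bars are means and the dotted line is the floor of 32. Rpl39l falls from Luc 1-3 to Jmjd1a and from Luc 4-6 to Jmjd2c. Rpl39 overlaps between Luc 1-3 and Jmjd1a, and is lower in Jmjd2c (20931 to 24859) than in Luc 4-6 (26679.9 to 29069). Heights of different probes are not comparable.

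Some genes had probes that disagreed. The 78 genes had 115 probes, and 32 of the 37 probes not chosen were tested, in 22 genes. No unchosen probe was called against the chosen one in the Jmjd1a comparison, 1 was with Jmjd2c and 3 were between the Luc sets. Over the 32 tested unchosen probes, 4 were higher and 0 lower with Jmjd1a, and 3 higher and 7 lower with Jmjd2c. Between the Luc sets 10 were higher and 13 lower (median -0.11, against 0.15 over the chosen canonical probes). Of all tested genes 14.5% were higher and 13.6% lower with Jmjd1a, and 22.7% and 19.6% with Jmjd2c. Between the Luc sets these shares were 40.2% and 21.6%. Both unchosen Rpl38 probes fell with Jmjd2c (-0.51 and -0.68), where the chosen one gave -0.12 (adjusted p = 0.134). Rps24 was the case with Jmjd2c: probe 102690538 fell by 0.61 on the log2 scale (adjusted p = 2.77e-05), while the chosen probe 5420377 rose and probe 107040059 rose by 0.47 (adjusted p = 0.00167). With Jmjd1a neither unchosen Rps24 probe was called. Averaging the 3 Rps24 probes, with 102690538 among them, ended the call in both knockdowns. Between the Luc sets probes of Rps24, Rplp2 and Rps20 disagreed, the last with a chosen probe at 0.23 and probe 106860242 at -0.23. For Rplp2 the chosen probe gave 0.45 and probe 5290020 gave -0.72. Ribosomal protein genes have many processed pseudogenes, and whether a probe also reads those or a paralogue was not tested.

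Other genes of ribosome production were set beside the canonical genes. In the Jmjd2c arrays, of 72 tested mitochondrial ribosomal protein genes, which encode the separate ribosome of mitochondria, 23 rose and 5 fell (median log2 change 0.08). Among them Mrps7 rose by 0.53, Mrpl20 by 0.43 and Mrps11 by 0.42, and Mrps10 (-0.33) and Mrpl24 (-0.32) fell. Of 55 ribosome biogenesis factors, which assemble subunits in the nucleolus, 24 rose and 3 fell (median 0.16), with Pes1 at 0.98 ± 0.05 (adjusted p = 2.00e-07), Noc3l at 0.63 and Imp4 at 0.57, against Utp14a at -0.37. Of 16 genes of RNA polymerase I and rDNA transcription 7 rose and 0 fell (median 0.17; 8 and 0 at an unadjusted p under 0.05 in limma), led by the rDNA factor Ubtf (0.73) and Taf1a (0.53).

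Translation factors and other TOP mRNAs, which share the canonical genes' translational control, gave 2 higher and 2 lower of 25 with Jmjd2c (median -0.09). The helicase Eif4a2 (-0.70) and the elongation factor Eef2 (-0.21) fell, and Eif3b (0.21) and Nap1l1 (0.21) rose. Of 16 mTOR and TOP regulators 3 rose (Akt1s1 0.55, Larp1 0.32, Rptor 0.24) and 1 fell (Ddit4 -0.29), with a median of 0.02. These counts describe the lists beside 22.7% of all tested genes higher and 19.6% lower (2490 and 2134 of 9222 unadjusted). No difference between lists was tested.

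With Jmjd1a, where 14.5% of all tested genes rose and 13.6% fell, each list had members called in both directions. Mitochondrial ribosomal proteins gave 4 higher and 7 lower (median -0.00; Mrpl32 0.40, Mrpl2 -0.39), and biogenesis factors 10 higher and 2 lower (median 0.05; Nob1 0.48, Ddx52 0.40, Las1l -0.40). RNA polymerase I genes gave 2 higher and 1 lower (Taf1a 0.46, Znrd1 -0.25), and translation factors 2 higher and 1 lower (Eif3k -0.35). Of the regulators 4 rose and 4 fell, with Ddit4, an inhibitor of mTOR, at 0.82 ± 0.11 (adjusted p = 0.000173), Myc at 0.74 and Larp1 at 0.28, and Eif4ebp2 at -0.36 and Tsc2 at -0.32.

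Between the Luc sets 40.2% of all tested genes were higher in Luc 4-6 and 21.6% lower (3950 and 2133 of 9222 unadjusted in limma). Of 55 biogenesis factors 0 were higher and 42 lower (median -0.39, and 0 and 43 unadjusted), with Ncl at -1.40 and Pes1 at -1.30. Of 16 RNA polymerase I genes 0 were higher and 13 lower (median -0.38, and 0 and 13 unadjusted). Mitochondrial ribosomal proteins gave 11 higher and 32 lower (median -0.16). Translation factors gave 5 higher and 6 lower (median -0.03), and the regulators 7 higher and 4 lower (median 0.19), among them Ddit4 at 2.03 and Myc at -0.63. The canonical ribosomal protein genes, at a median of 0.15 beside 0.11 over all tested genes, lay above all of these lists except the regulators.

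**Figure D4:**
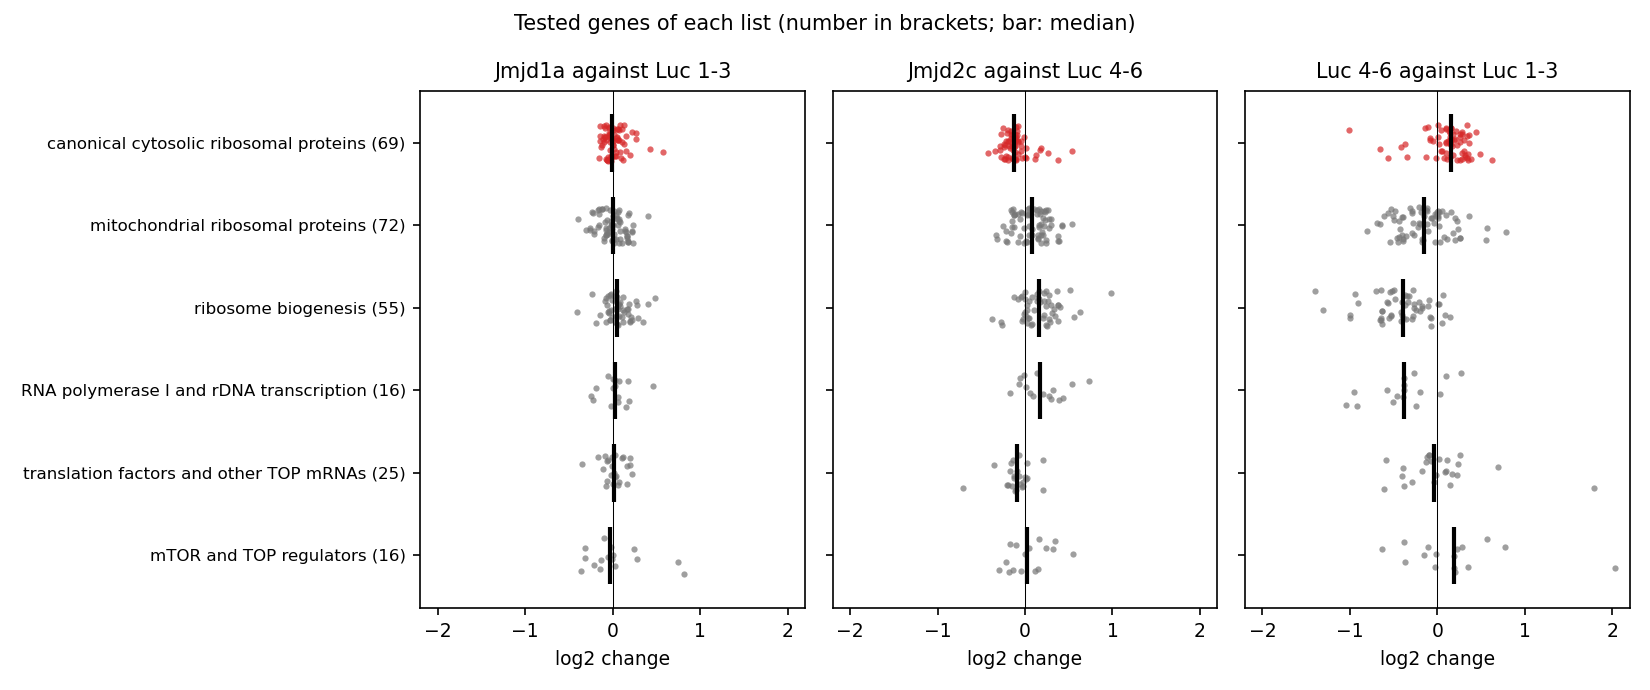
Log2 change of each tested gene in canonical cytosolic ribosomal proteins (red) and 5 other lists (grey) for 3 comparisons; black bars are medians and numbers in brackets count the genes. In the Jmjd2c panel the canonical bar lies at -0.12 and that of ribosome biogenesis at 0.16; between the Luc sets they lie at 0.15 and -0.39.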

How the data were processed

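The authors deposited 1 intensity per probe and array on a linear scale for 46133 probes and 12 arrays of a one-colour Illumina bead platform. Between 35.0% and 36.8% of values lie below 0, so a background had been subtracted. The method, and any scaling, are not given in the sources used here. Values were used as deposited, set to 32 where lower, and put on the log2 scale, where the floor is 5. This shrinks changes of dim probes. Of all probes 15853 were tested (9222 genes, 1 probe each).

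Symbols came from the array's annotation (29542 probes with 1 symbol, 11 with several, 16580 with none). All 78 members matched a RefSeq gene table by gene ID, and 64 had a promoter entry there. Limma 3.58.1 (R 4.3.3; lmFit, eBayes) fitted 4 group means over 12 arrays, leaving 8 residual degrees of freedom, with two-sided p-values adjusted by Benjamini-Hochberg over the tested probes and a threshold of 0.05. The fit was tested on simulated data. Intensities are mean ± SD and changes estimate ± SE, with 3 arrays a group; the number of arrays limits the precision.

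The text names the targets, the paralogues and their partners, stalk proteins, Rpsa, Rps27a, Rpl5, Rpl11, genes with disagreeing probes, the 8 largest called canonical rises and falls per comparison and up to 4 of each in the other lists. Rps19bp1 and the members called in the difference between knockdowns were added after their values were seen. Members, lists and array sets were chosen with earlier results of these data known. Alternatives were other scalings, floors, filters, probe averaging, control arrays, variance models, a replicate block and each array left out.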

Additional observations from a re-analysis of the deposited data

Results flagged for a closer look

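The change with Jmjd1a differed from the change with Jmjd2c, by a test of the difference itself in limma, for 14 of 76 tested members. Of the members 12 were higher (15.8%) and 2 lower (2.63%), where 12.9% of all tested genes were called in each direction. In log2 units, Jmjd1a minus Jmjd2c, these were Rpl22 (0.52), Rpl4 (0.45), Rpl23a (0.44), Rpl22l1 (0.39), Rpl12 (0.38), Rps26 (0.33), Rpl36a (0.29), Rpl7 (0.28), Rps15 (0.28), Rps2 (0.27), Rps28 (0.25), Rps10 (0.23), Rps19bp1 (-0.41) and Rpl3l (-0.62). The difference calls of Rpl22, Rpl4, Rpl12, Rpl36a and Rps19bp1 held in all 22 alternatives. That of Rps10 was lost in 13 of 22, those of Rpl22l1, Rps26 and Rps28 in 11, and that of Rpl7 in 10. Those of Rpl23a, Rps15 and Rps2 were lost in 7, 6 and 2. For Rpl3l the call was lost in 11 of 21, and the sign reversed in 1 more. Rpl4 was called in both knockdowns, in opposite directions, but its Jmjd2c call (adjusted p = 0.0486) was lost in 13 of 24 alternatives. Each knockdown was measured against its own 3 Luc arrays. The Luc sets differed for 10 of the 14, 9 of them higher in Luc 4-6 and 1 lower. Of all tested genes 40.2% were higher and 21.6% lower. The same Luc arrays enter the difference that picked these 14, so the counts are not a separate result.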

How the results depend on the processing

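For 38 named members, 3568 values under alternatives were compared with the reported ones. Of these 3284 kept their side of the threshold, 222 lost a call, 58 gained one and 4 reversed. A reversal was counted only where a change was called, so changes that were never called could switch sign among the 3284. Rpl12 with Jmjd1a, for example, ran from -0.21 to 0.05. Of 72 called results 23 held under every alternative run for them. Reversed were Rpl31 (-0.0070) and Rps19 (-0.13) with Jmjd2c against all 6 Luc arrays, Rplp1 between the Luc sets (-0.0122, scaling to the median) and Rpl3l in the difference between knockdowns (0.28, floor 64). With Jmjd1a the members called lower numbered 1 at a floor of 64, with probes above 32 on all 12 arrays, or against all 6 Luc arrays, and 4 with only the 6 arrays compared; 8 were higher with an intensity trend, and the canonical median was -0.11 against all 6 Luc arrays. With Jmjd2c the number lower was 9 (quantile), 37 (75th percentile), 14 (floor 16), 15 (no filter) and 1 (all 6 Luc arrays, with 0 higher), and the median -0.0570 with quantile normalization and -0.0564 against all 6 Luc arrays. Between the Luc sets 22 (75th percentile) and 11 (scaling to the median) were higher and 19 lower (scaling to the median), with medians of 0.0781 and -0.0085; quantile normalization moved the median of all genes there by -0.11 and scaling to the median by -0.14. In the difference between knockdowns 5 were higher and 1 lower at a floor of 16, 1 was lower at a floor of 64, with 32 added before the log, with no filter or with probes above 32 on all 12 arrays, and the median was 0.0776 with quantile normalization. The cause of these shifts was not tested.

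Leaving out 1 array at a time gave, for Jmjd1a, 4 to 6 higher and 2 to 4 lower (4 without Luc replicate 1) and medians from -0.03 to 0.02, and for Jmjd2c 4 to 6 higher, 10 to 24 lower (10 without Jmjd2c replicate 1) and medians from -0.15 to -0.10. Between the Luc sets it gave 25 to 37 higher, 10 to 11 lower and medians from 0.13 to 0.18. In the difference it gave 4 to 11 higher and 1 to 2 lower, with medians from 0.0913 (without Jmjd1a replicate 3) to 0.16. There the number higher was 4 without Luc replicate 1, 5 without Luc replicate 5, 6 without Jmjd1a replicate 2, and 7 without Luc replicate 6, Jmjd1a replicate 3, Jmjd2c replicate 1 or Jmjd2c replicate 2; 1 was lower without Luc replicates 2, 3, 4 or 6, Jmjd1a replicate 2, or Jmjd2c replicates 1 or 2. Over all tested probes, same-numbered Jmjd1a and Luc 1-3 arrays did not pair (r -0.00, 0.01 and 0.11). With a replicate block for these arrays 5 members rose and 2 fell with Jmjd1a. Pairing of the Jmjd2c arrays with Luc 4-6 was not checked. The canonical median per array, relative to the 6 Luc arrays, rose with replicate number in every group. It went from -0.13 to -0.03 in Luc 1-3 and from -0.15 to -0.06 in Jmjd1a. In Luc 4-6 it went from 0.05 to 0.12, and in Jmjd2c from -0.10 to -0.00. The cause of this order was not tested. Probes near the floor of 32 (Rps19, Rpl29, Rpl3l) have the least signal over background.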
